A study of Homo sapiens with 6 samples.

Results

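The E2F and DP transcription factors were examined as the 10 genes E2F1 to E2F8, TFDP1 and TFDP2, taken by gene symbol from the array annotation out of 18404 genes with a symbol of their own. Each of the 10 was represented by exactly 1 probeset, so every member has 1 measured value per array. RNA from the established human embryonic kidney line HEK293 was measured on 6 Affymetrix arrays. The parental group (wild-type HEK293 Flp-In, n = 3) is the host line, and the TRIM71 group (n = 3) constitutively expresses FLAG-HA-tagged TRIM71, a TRIM-NHL protein that binds mRNA. Medium with 50 ug/ml hygromycin B is named only for the TRIM71-expressing cells, so transgene, drug and other differences between the lines cannot be told apart. The labels do not name the promoter of the transgene or say whether the line is a single clone. Triplicates are stated without saying whether they were separate cultures, so p-values cover only the variation among these arrays, which may be technical.

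E2F proteins bind DNA in the promoters of genes for the G1/S transition and DNA replication. E2F1, E2F2 and E2F3 are activators that the retinoblastoma protein holds inactive until cyclin-dependent kinases phosphorylate it. E2F4 and E2F5 mostly act as repressors together with the pocket proteins RBL1 and RBL2, and E2F6 represses without pocket proteins, as part of a Polycomb complex. E2F1 to E2F6 bind DNA as dimers with a DP protein, the product of TFDP1 or TFDP2, whereas E2F7 and E2F8 are atypical repressors that need no DP partner and switch off the activators and their targets later in S phase. E2F7 mRNA is a reported TRIM71 target, from work that may have used these arrays, so its value here is not independent evidence. Levels are log2 expression values, given as mean ± SD with n = 3 per group. A log2 fold change is the TRIM71 line minus the parental line, and a gene is said to have risen or fallen at a Benjamini-Hochberg adjusted p under 0.05 in a limma fit over all 32321 probesets.

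TRIM71 itself, which checks the labels, stood at 7.23, 7.54 and 7.44 on the parental arrays and at 10.63, 10.86 and 10.72 on the TRIM71 arrays, 10.1-fold higher (adjusted p = 6.8e-05). Array medians lay between 6.90 and 6.97. HEK293 features were present in both groups. Of 9 measured markers 8 had a mean above 6.95, the median of all values, including vimentin (VIM) at 11.11 and N-cadherin (CDH2) at 11.05 in the parental line. Of these 9 markers, 3 rose (SALL1, CDH2 and VIM) and 3 fell (NEFL, INA and KRT8), with NEFL, a neurofilament, at −1.45 on the log2 scale. The KRT8 call ended with any 1 array left out (adjusted p between 0.064 and 0.12). Of 16 markers of leukocytes, endothelium, hepatocytes and fibroblasts, 14 lay below that median. Their mean log2 level was between 5.18 and 5.24 on the parental arrays and between 5.18 and 5.25 on the TRIM71 arrays. The markers PTPRC of leukocytes (3.53 in the parental and 3.50 in the TRIM71 line) and ALB of hepatocytes (3.94 in the parental line, higher by 0.06 in the TRIM71 line) were dim. COL1A1 of fibroblasts lay above the median of all values, at 7.66 in the parental and 7.47 in the TRIM71 line. So did APOA1 of hepatocytes, at 6.98 in both lines, although its second probeset was dim at 4.83 in the parental line. PDGFRA, a fibroblast marker, was the only 1 of the 16 to rise (0.34).

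Among the 10 factors, 2 rose, 2 fell and 6 did not pass the test. E2F5 rose 1.67-fold and E2F6 rose 1.28-fold, while E2F7 fell to 61.9% and TFDP1 to 83.4% of the parental level. All 3 activators and E2F4, E2F8 and TFDP2 were not called. Over all 18404 genes tested 22.2% were called, 10.0% as risen and 12.2% as fallen. Among the 11086 genes at or above the median level, where all 10 factors lie, the share was 31.2%, with 14.6% risen and 16.6% fallen. Read against these shares, 4 called of 10 is no result about the family as a whole. For 6 of the 10 factors the groups did not overlap, beside 43.6% of all genes and 58.9% of those at or above the median level. A change of at least 1.5-fold was called for 3.97% of all genes, and E2F5 and E2F7 were among them. By absolute log2 fold change, E2F5 ranked 428 and E2F7 ranked 494 of 18404 genes. The median log2 fold change was −0.0026 over the 10 factors and −0.01 over all genes, and the median absolute change 0.19 against 0.11.

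**Figure D1:**
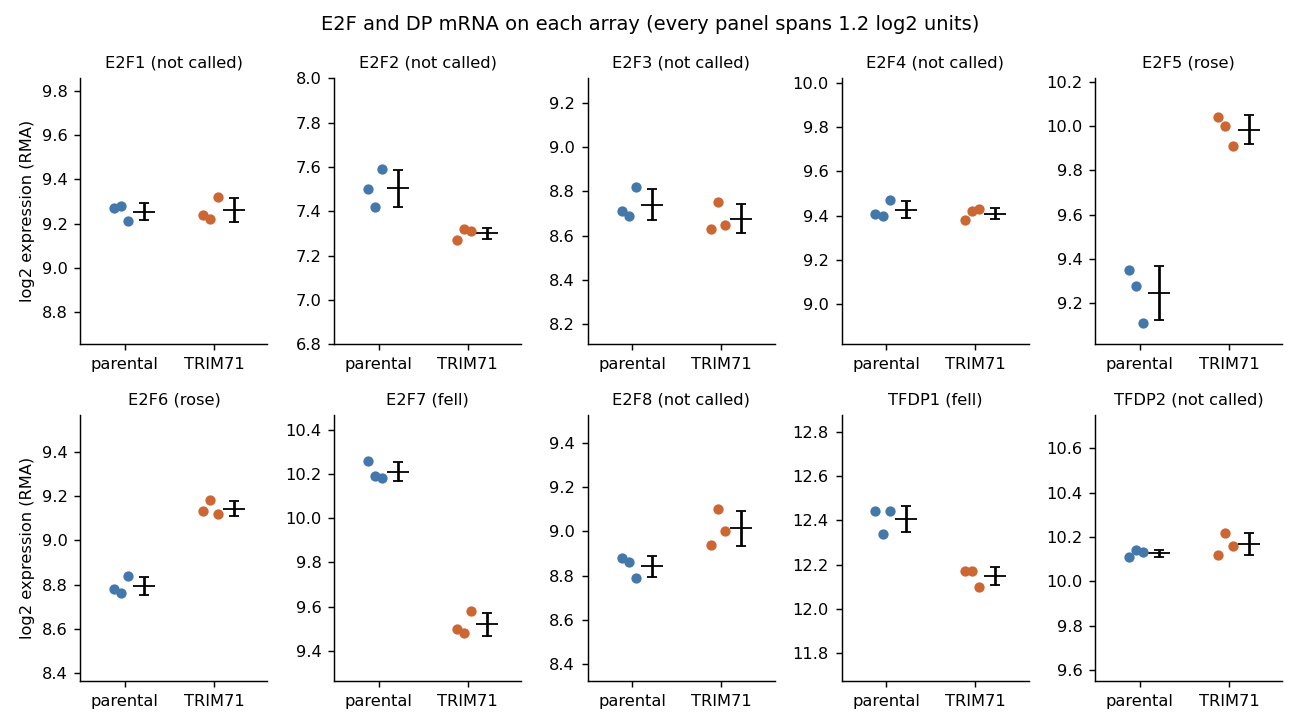
Log2 expression (RMA) of each of the 10 factors on the 3 parental (blue) and 3 TRIM71 (orange) arrays, with the mean and SD of each group in black and the call of the limma fit in the title. Every panel spans the same 1.2 log2 units, and the groups stand apart most widely for E2F7 (gap 0.60) and E2F5 (gap 0.56).

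The largest fall was that of E2F7. Its log2 level was 10.26, 10.19 and 10.18 on the parental arrays and 9.50, 9.48 and 9.58 on the TRIM71 arrays. All TRIM71 arrays lay below all parental arrays, with a gap of 0.60 between the groups. The mean went from 10.21 ± 0.05 to 9.52 ± 0.06, a log2 fold change of −0.69 (SE 0.05, 95% interval −0.82 to −0.56, adjusted p = 7.9e-04). With any 1 array left out the value stayed between −0.72 and −0.66. A 2-sided exact permutation test gave p = 0.1, which is the lowest value possible with 3 arrays in each group.

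E2F8, the other atypical repressor, is the closest relative of E2F7 and is thought to share many of its target genes. It stood at 8.88, 8.86 and 8.79 on the parental arrays and at 8.94, 9.10 and 9.0 on the TRIM71 arrays. The groups did not overlap, with a gap of 0.07, but the difference of 0.17 did not pass (95% interval 0.03 to 0.31, adjusted p = 0.10). It passed when dim probesets were left out before adjustment (adjusted p = 0.040). The log2 ratio of E2F8 to E2F7, set to a mean of 0 in the parental line, was 0.81, 1.0 and 0.78 on the TRIM71 arrays and between −0.02 and 0.04 on the parental arrays. The atypical pair was thus unequal in these lines, with the 2 log2 fold changes 0.86 apart.

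E2F5 showed the largest rise. It stood at 9.35, 9.28 and 9.11 on the parental arrays and at 10.04, 10.00 and 9.91 on the TRIM71 arrays. The lowest TRIM71 array was 0.56 above the highest parental array. The mean rose from 9.25 ± 0.13 to 9.98 ± 0.06 (log2 fold change 0.74, SE 0.08, 95% interval 0.55 to 0.92, adjusted p = 0.0021). The parental spread of E2F5 was the widest of the 10 factors, and the value stayed between 0.67 and 0.79 with any 1 array left out. E2F4, which also represses with RBL1 and RBL2 and is usually the more abundant protein of the pair, stood at 9.41, 9.40 and 9.47 on the parental arrays and at 9.38, 9.42 and 9.43 on the TRIM71 arrays. The groups overlapped, and the difference was −0.01 (95% interval −0.13 to 0.10, adjusted p = 0.89). The 2 log2 fold changes differed by 0.75.

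E2F6 was higher by less than E2F5. It stood at 8.78, 8.76 and 8.84 on the parental arrays and at 9.13, 9.18 and 9.12 on the TRIM71 arrays. All TRIM71 arrays lay above all parental arrays, and the mean rose from 8.79 ± 0.04 to 9.14 ± 0.03 (log2 fold change 0.35, SE 0.05, 95% interval 0.24 to 0.47, adjusted p = 0.0051). E2F6 lies on chromosome 2, where 27.9% of the 1153 other genes rose and 6.42% fell, against 10.0% and 12.2% of all genes. The median log2 fold change of those genes was 0.08. Of its 20 nearest measured neighbours, 10 on either side, 7 rose, 1 fell and their median was 0.03. The part of the chromosome in the rise of E2F6 was not tested.

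The chromosomes of the other called factors stood closer to these overall shares. On chromosome 8, which holds E2F5, 8.93% of the other genes rose and 9.87% fell, and the 20 neighbours of E2F5 had 2 risen and 3 fallen. On chromosome 12, which holds E2F7, 8.66% rose and 15% fell, and of the 20 neighbours 2 rose and 6 fell, with a median of −0.11. On chromosome 13, which holds TFDP1, 10.2% rose and 15.2% fell, and of the 18 neighbours 1 rose and 3 fell.

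**Figure D2:**
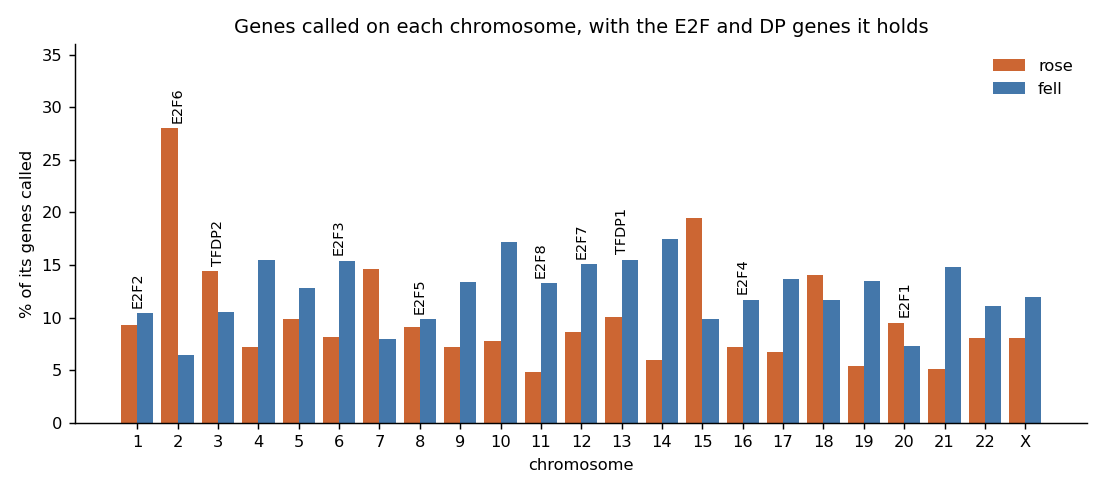
Percent of the measured genes of each chromosome that rose (orange) or fell (blue) in the TRIM71 line at an adjusted p under 0.05, with the E2F and DP genes written above the chromosome that holds them. Chromosome 2, with E2F6, has the highest share of risen genes (28.0% with E2F6 counted).

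The activators carry most of the promoter activation in the family, and none of the 3 passed the test. E2F1, which the retinoblastoma protein binds and which can also drive apoptosis genes, stood at 9.27, 9.28 and 9.21 on the parental arrays and at 9.24, 9.22 and 9.32 on the TRIM71 arrays. The groups overlapped, and the difference was 0.01 (95% interval −0.11 to 0.13, adjusted p = 0.94). The interval leaves room for a small change in either direction, and the sign turned when parental replicate 3 or TRIM71 replicate 3 was left out.

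E2F3 stood at 8.71, 8.69 and 8.82 on the parental arrays and at 8.63, 8.75 and 8.65 on the TRIM71 arrays, with overlapping groups (−0.06, 95% interval −0.21 to 0.08, adjusted p = 0.55). Its gene gives a longer and a shorter protein from separate start sites, and the single probeset has no separate value for each. E2F2, the remaining activator, stood at 7.5, 7.42 and 7.59 on the parental arrays and 7.27, 7.32 and 7.31 on the TRIM71 arrays. The groups did not overlap, and the difference of −0.20 missed the threshold (95% interval −0.34 to −0.06, adjusted p = 0.065). It passed when dim probesets were left out (adjusted p = 0.023) or when 1 probeset per gene was tested (adjusted p = 0.029).

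TFDP1 encodes DP1, the main DNA-binding partner of the E2F proteins, and its mRNA stood at 12.44, 12.34 and 12.44 on the parental arrays and at 12.17, 12.17 and 12.10 on the TRIM71 arrays. The groups did not overlap, and the mean fell from 12.41 ± 0.06 to 12.14 ± 0.04 (log2 fold change −0.26, SE 0.05, 95% interval −0.39 to −0.14, adjusted p = 0.019). This was the least stable of the 4 calls. It was lost in the same limma fit when parental replicate 1 (−0.25, adjusted p = 0.057), parental replicate 3 (−0.25, 0.067), TRIM71 replicate 1 (−0.27, 0.060), TRIM71 replicate 2 (−0.28, 0.054) or TRIM71 replicate 3 (−0.24, 0.061) was left out. TFDP2, the other partner gene, stood at 10.11, 10.14 and 10.13 on the parental arrays and at 10.12, 10.22 and 10.16 on the TRIM71 arrays. Its groups overlapped, and the difference was 0.04 (95% interval −0.07 to 0.16, adjusted p = 0.65).

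**Figure D3:**
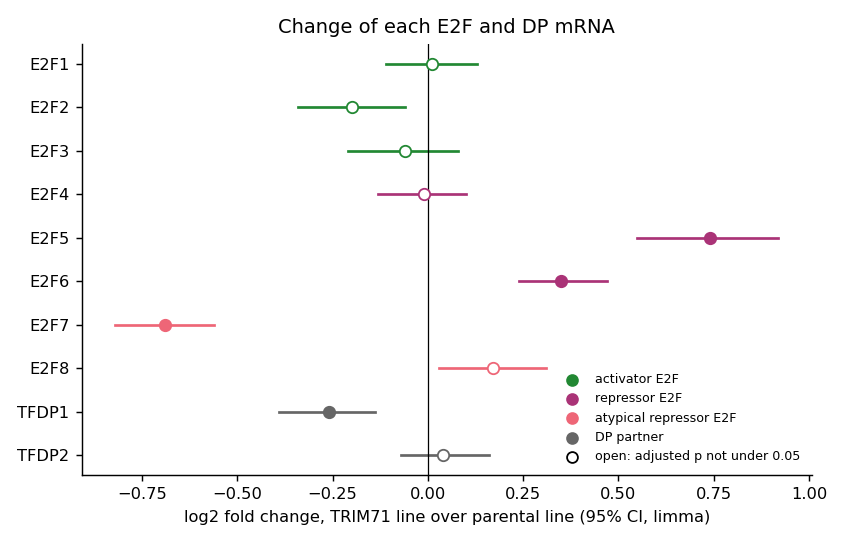
Log2 fold change of each factor in the TRIM71 line over the parental line with its 95% limma interval, coloured by class, filled where the adjusted p was under 0.05. Called repressors lie on both sides of 0 (E2F5 0.74, E2F6 0.35, E2F7 −0.69), and the 3 activators lie between −0.20 and 0.01.

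Set against each other as classes, the activators averaged below and the repressors above their parental level, and single repressors moved in opposite directions. Each gene was expressed as its log2 change from its own parental mean and averaged within the class on each array, as a description without a test. The 3 activators averaged −0.12, −0.07 and −0.07 on the TRIM71 arrays, and −0.01, −0.04 and 0.04 on the parental arrays. The 5 repressors averaged 0.09, 0.13 and 0.11 on the TRIM71 arrays, between −0.03 and 0.03 on the parental arrays. Activators minus repressors came to −0.21, −0.20 and −0.18 on the TRIM71 arrays, and to −0.04, −0.03 and 0.07 on the parental arrays, without overlap. The sign of the repressor mean, and most of its distance from the activators, rested on 1 gene. Without E2F5 the other 4 repressors averaged −0.08, −0.02 and −0.03, close to the activators. The activator mean was led by E2F2 (−0.20), beside E2F3 (−0.06) and E2F1 (0.01), and none of the 3 was called.

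Within the repressors the subclasses lay apart. E2F4 and E2F5, which bind pocket proteins, averaged 0.37, 0.37 and 0.34 on the TRIM71 arrays, with E2F4 itself near 0. E2F7 and E2F8 averaged −0.31, −0.24 and −0.24, with E2F8 itself above 0. Between activator and atypical repressor, the log2 ratio of E2F1 to E2F7 was higher by 0.70 on each of the 3 TRIM71 arrays, against −0.04, 0.05 and −0.01 on the parental arrays. E2F1 itself differed by 0.01, so this ratio restates the E2F7 fall of −0.69 and adds no result about E2F1.

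**Figure D4:**
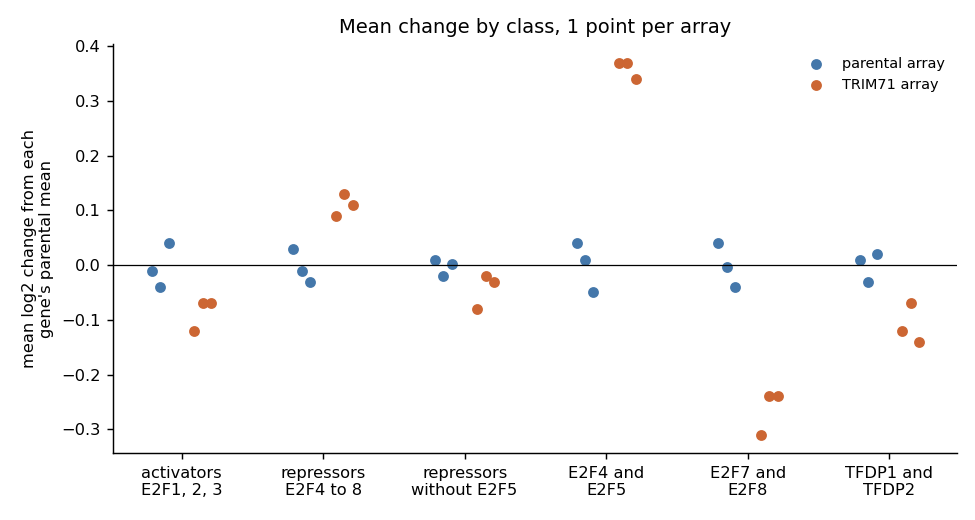
Mean log2 change from the parental mean of each gene, averaged over the genes of a class, with 1 point per array (blue parental, orange TRIM71). The repressor mean is above 0 with E2F5 and below 0 on the TRIM71 arrays without it, and the subclasses E2F4 with E2F5 and E2F7 with E2F8 lie on opposite sides.

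E2F genes are themselves known targets of E2F proteins, so the promoters of the activators were read for E2F motifs beside that of E2F7, the member with the largest fall. The sequences are the 80 bases before the RefSeq start site (GRCh38.p14), in the direction of the gene, and capitals mark the motifs. The motifs searched were TTTCGCGC, TTTGGCGC, TTTCCCGC and TTTGCCGC on both strands within 250 bases before the start. The E2F3 promoter shown is that of its upstream start site.
E2F1 (chr20:33686386-33686465, minus strand): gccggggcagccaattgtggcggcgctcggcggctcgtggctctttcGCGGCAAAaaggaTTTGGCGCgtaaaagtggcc
E2F2 (chr1:23531234-23531313, minus strand): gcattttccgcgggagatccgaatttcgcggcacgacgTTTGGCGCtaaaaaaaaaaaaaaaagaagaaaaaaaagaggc
E2F3 (chr6:20401799-20401878, plus strand): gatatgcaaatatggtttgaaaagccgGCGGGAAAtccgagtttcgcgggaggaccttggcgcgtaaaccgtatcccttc
E2F7 (chr12:77065570-77065649, minus strand): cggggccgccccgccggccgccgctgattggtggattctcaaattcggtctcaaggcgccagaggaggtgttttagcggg

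Each activator had a match close to a start site, E2F1 with 2 (from 33 and 20 bases before the start), E2F2 with 1 (from 42) and E2F3 with 1 (from 53). The window of the downstream E2F3 start site held none of the 4 words. Of 35116 promoters of the same length in the RefSeq table, 2.79% held any of the 4 words within 250 bases and 0.888% within the last 80. TFDP1 had 1 match, from 120 bases before its start, and the E2F4, E2F6, E2F7 and TFDP2 windows held none of these letters. Promoters were available for 8 factors only, and those of E2F5 and E2F8 were not searched. A match is a description of the letters and not a measured site. Genes of the array with a match in this window numbered 664, of which 66 rose and 109 fell (26.4% called, median log2 fold change −0.03), beside 13566 genes of the table without one (23.5% called, median −0.01).

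RBL1 or RBL2 and the MuvB core join E2F4 or E2F5 and a DP protein in the DREAM repressor complex. The list of pocket proteins and MuvB genes, with RB1 and MYBL2 outside that complex, had 1 of 9 members risen and 2 fallen. Its median was −0.12. The share called, 33.3%, is near the 31.2% of all genes at or above the median level and is no result about this list. LIN52, a MuvB subunit, rose from 9.03 ± 0.03 to 9.35 ± 0.04 (0.31, adjusted p = 0.0075). RBL1, the pocket protein p107, fell from 9.73 ± 0.01 to 9.50 ± 0.03 (−0.23, adjusted p = 0.017), and RB1, the retinoblastoma gene, from 11.11 ± 0.12 to 10.82 ± 0.05 (−0.29, adjusted p = 0.039). The others did not pass: RBL2 (−0.13), LIN37 (−0.21), LIN54 (−0.12), LIN9 (−0.07), MYBL2 (−0.08) and RBBP4 (−0.04). The RB1 call ended with any 1 array left out (adjusted p between 0.058 and 0.10) and with each array centred on its median, which left 1 risen and 1 fallen. The RBL1 call ended without parental replicate 2 or 3 or TRIM71 replicate 1 or 2, with the highest adjusted p at 0.068. LIN37 passed in 6 of 15 alternatives, among them quantile normalization (adjusted p = 0.047), with which 3 members of the list fell. The sign of LIN9 turned without parental replicate 1 (0.03).

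Upstream of E2F, cyclins and their kinases in general release the factors from pocket proteins, and CDK inhibitors oppose this. Whether that control is intact in these 2 lines was not tested. Of 18 such genes measured, 2 rose and 7 fell (50% called, beside 22.2% of all genes and 31.2% of those at or above the median level, median −0.11). The cyclins E, which pair with CDK2 and are E2F targets themselves, went opposite ways. CCNE2 stood at 9.80, 9.59 and 9.63 on the parental arrays and at 8.20, 8.22 and 8.09 on the TRIM71 arrays, 2.83-fold lower (adjusted p = 2.1e-04). CCNE1 stood at 9.80, 9.64 and 9.76 against 10.11, 10.17 and 10.13, 1.32-fold higher (log2 fold change 0.40, adjusted p = 0.0065). Neither pair of groups overlapped. CDK6, a kinase of the D cyclins, rose from 9.94 ± 0.06 to 10.54 ± 0.01 (0.61, adjusted p = 9.1e-04), while CCND3, a D cyclin, fell by 0.89 on the log2 scale (adjusted p = 9.6e-04) and CDK2 by 0.47 (adjusted p = 0.0034). The other falls were CCND1 (−0.28, adjusted p = 0.012), CCND2 (−0.32, 0.0072) and the CDK inhibitors CDKN1A (−0.54, 0.0074) and CDKN1B (−0.31, 0.0071). The inhibitors CDKN1C, CDKN2A, CDKN2B and CDKN2D did not pass. These additional genes were chosen for naming after their values were seen. With the replicate number as a block, 2 genes of the list rose and 6 fell.

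Of 47 measured G1/S genes known as E2F targets, 4 rose, 15 fell and 28 did not pass (40.4% called, beside 31.2% of genes at or above the median level). Their median log2 fold change was −0.13, against −0.01 over all genes. The fallen genes included TK1, thymidine kinase, from 10.10 ± 0.02 to 9.29 ± 0.07 (−0.81, adjusted p = 5.0e-04), the licensing factor CDT1 (−0.57, adjusted p = 9.5e-04) and CCNE2. The risen genes included GINS1, a helicase subunit (0.33, adjusted p = 0.014), CLSPN, the checkpoint adaptor claspin (0.41, adjusted p = 0.014), and CCNE1. The second, dimmer CLSPN probeset rose as well (0.33, adjusted p = 0.041). Without TRIM71 replicate 2 the GINS1 call was lost (adjusted p = 0.055). The CLSPN call was lost without parental replicate 2 or 3 or TRIM71 replicate 1 or 2 (highest adjusted p 0.056). Median centring left 4 risen and 8 fallen, and leaving out any 1 array left 1 to 4 risen and 6 to 9 fallen, while the median stayed between −0.15 and −0.10 in these settings and with quantile normalization.

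Of 12 measured genes reported as repressed by E2F7 and E2F8, all of them also G1/S genes of the preceding list, CCNE1 rose, CCNE2 and CDT1 fell and 9 did not pass (median −0.09). The 25% called lies between the 22.2% of all genes and the 31.2% of genes at or above the median level, so the count is no result about this list.

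Of 10 measured apoptosis genes known as E2F1 targets, 2 rose and 3 fell (50% called, beside 22.2% of all genes and 31.2% of those at or above the median level, median −0.04). BCL2L11, which encodes BIM, rose by 0.40 (adjusted p = 0.0052) and CASP9, the initiator caspase, by 0.33 (adjusted p = 0.0086). BCL2L11 lies on chromosome 2, like E2F6, where 28.0% of genes rose, and the part of the chromosome in its rise was not tested. TP73, a relative of p53, fell by 0.45 on the log2 scale (adjusted p = 0.0021), HRK, a BH3-only protein, by 0.42 (adjusted p = 0.0051) and APAF1, the apoptosome scaffold, by 0.23 (adjusted p = 0.038). The APAF1 call ended with any 1 array left out (adjusted p between 0.061 and 0.12).

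E2F6 works with the variant Polycomb complex PRC1.6. Of 11 measured partners in it, 3 rose and 3 fell (54.5% called, beside the same 22.2% and 31.2%, median −0.01). MGA, which holds the complex together and binds DNA with MAX, rose from 9.82 ± 0.02 to 10.19 ± 0.05 (0.37, adjusted p = 0.0041), the deacetylase HDAC1 rose by 0.28 (adjusted p = 0.011) and RYBP by 0.29 (adjusted p = 0.016). MGA lies on chromosome 15, where 19.5% of genes rose and 9.91% fell, and the part of the chromosome was not tested. The ubiquitin ligase subunit RING1 fell by 0.52 on the log2 scale (adjusted p = 0.0047), WDR5 by 0.25 (adjusted p = 0.013) and MAX by 0.24 (adjusted p = 0.018). A second RING1 probeset, dim at 5.66 in the parental line, differed by −0.61 and did not pass (adjusted p = 0.17). PCGF6, the Polycomb subunit that defines the complex, did not pass at its brighter probeset (−0.24, adjusted p = 0.061) and fell at the other (−0.26, adjusted p = 0.015). The counts of the list use the brighter probeset, and which of them better measures PCGF6 was not tested. PCGF6 was chosen for naming after its values were seen. Calls ended for RYBP without parental replicate 2 or 3 or TRIM71 replicate 2, for WDR5 without parental replicate 2 or TRIM71 replicate 1, and for MAX without any 1 array other than parental replicate 1, with adjusted p of at most 0.064.

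Germline genes that E2F6 is known to keep silent outside the germ line showed no called change. The 5 measured were SMC1B (3.94 and 4.01 in the parental and TRIM71 lines, a difference of 0.07), MAEL (3.96 and 3.93), SLC25A31 (4.08 and 4.06), STAG3 (6.05 and 6.09) and TUBA3C (7.17 and 7.16). The first 4 lay below the median of all values in both lines, where a log2 value understates a change. TUBA3C has near-identical copies in the genome, so its identity is uncertain.

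E2F4 and E2F5 are also known from the program that builds many cilia, where they act with partners other than pocket proteins. Of 11 measured genes of that program, 1 rose and 4 fell (45.5% called, beside 22.2% of all genes and 31.2% of those at or above the median level, median −0.09). Of the 11, 4 had a mean below the median of all values. GMNC and MCIDAS, also in the list, had no probeset of their own and were not analysed. CEP152, a centriole duplication protein, rose from 8.10 ± 0.08 to 8.71 ± 0.05 (0.61, adjusted p = 0.0017). Like MGA, CEP152 lies on chromosome 15, where 19.5% of genes rose. The transcription factor MYB fell from 8.72 ± 0.06 to 7.70 ± 0.13 (−1.02, adjusted p = 7.2e-04). TP73 fell as given above, and the RFX factors of cilium genes RFX2 (−0.34, adjusted p = 0.013) and RFX3 (−0.42, adjusted p = 0.022) fell too. RFX2 went from 7.32 to 6.98, near the median of all values (6.95), and RFX3 from 6.76 to 6.35, below it in both lines. The RFX3 call ended without parental replicate 1 or 3 or TRIM71 replicate 1 or 3 (highest adjusted p 0.079). FOXJ1, the main regulator of motile cilia, did not pass and was dim in both lines, at 6.17 and 6.13. RFX3 and FOXJ1 were chosen for naming after their values were seen.

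**Figure D5:**
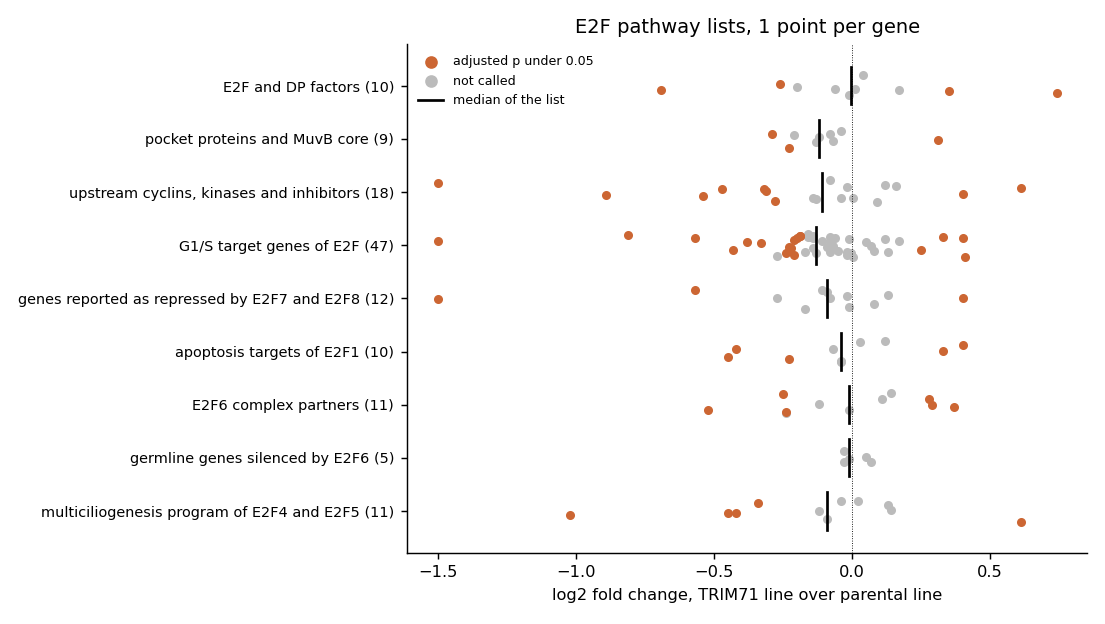
Log2 fold change of every measured gene in the E2F family and 8 related lists, 1 point per gene, orange where the adjusted p was under 0.05, with the median of the list as a black bar and the number of measured genes in brackets. The G1/S target genes lie mostly below 0 (median −0.13), with CCNE2 farthest out.

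The genes most like each called factor were found by the root mean square difference of their log2 profiles over the 6 arrays, each profile centred on its own mean. Nearest to E2F7 were GLCE, ZNF711, ZFP82, GJB2 and GLB1L2, with differences of 0.033 to 0.043 log2 units. Nearest to E2F5 were CTSV, PMFBP1, CFAP69, SKIL and EPB41L4A, at 0.050 to 0.062. E2F6 had PDGFRA, CA12, DST, HSPA5 and NUDCD1 within 0.013 to 0.019, and TFDP1 had ZNF18, SPIRE1, TRMT5, ZFAND4 and TCEAL1 within 0.016 to 0.022. None of these 20 genes belongs to the lists of E2F partners and targets, and with 2 groups the likeness mostly reflects an equal difference between the lines.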

How the data were processed

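Per the submitters' processing notes, the authors made the deposited log2 values with RMA and affy, 1 value per probeset and array. RMA equalises the arrays' distributions, so a change in total mRNA per cell cannot be seen. Software versions and genome build: not given in the sources used here.

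limma 3.58.1 in R 4.3.3 (lmFit, eBayes, group as the term) was fitted to all 32321 probesets, after a test on simulated data, and p-values were adjusted over all of them. That test recovered 22% of 1.25-fold, 56% of 1.5-fold and 86% of 2-fold changes, so small changes can go uncalled. It changed only 50 probesets at each size, a far smaller share than was called here, so its rates may differ from those of these data. Genes were named from the 19158 probesets with 1 symbol, and the probeset with the highest mean stood for its gene. With 3 arrays per group, their number limits the precision.

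Members, lists and tests were chosen with earlier results of these data known. Named were TRIM71, all 10 factors, per list up to 6 called genes by adjusted p (3 per direction where both passed), every gene of lists with 9 or fewer, and the 5 nearest profiles of each called factor. Chromosome shares, neighbours and motifs were added after values had been seen. Alternatives changed the variance model, normalization, filter, probesets per gene, array weights, replicate block and threshold (0.01), and left out each array. List genes without a probeset of their own were not analysed here. Promoters came from the RefSeq table (GRCh38.p14).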

Additional observations from a re-analysis of the deposited data

How the results depend on the processing

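Over 16 alternatives, E2F5 stayed between 0.67 and 0.79, E2F6 between 0.33 and 0.37 and E2F7 between −0.72 and −0.66, called in each, and so was TRIM71 (3.25 to 3.40). The number of factors that rose was 2 with a threshold of 0.01, with the replicate block and with any 1 array left out, and the number that fell was 1 with the threshold of 0.01, 1 with the replicate block and 1 to 2 with 1 array left out, since TFDP1 lost its call. With dim probesets left out 3 rose and 3 fell, and 3 fell with 1 probeset per gene or with the mean of a gene's probesets. Replicate numbers did not pair the arrays (correlations of same-numbered deviations 0.068, −0.19 and 0.11). With that block TFDP1 had an adjusted p of 0.070, RB1 0.062, RBL1 0.068, GINS1 0.061, APAF1 0.075, RYBP 0.063, WDR5 0.058, MAX 0.071, KRT8 0.086 and RFX3 0.077. No other called gene that was followed in the alternatives lost its call with the block. Of the called genes named here, CCND1, CCND2, CDKN1A, CDKN1B, second probesets and nearest-profile genes outside the lists were not followed there. The called G1/S target genes not named here were not followed singly either, only through the counts and median of their list. Over all genes, 1848 rose and 2244 fell, 1019 and 1371 with the block, 792 and 1106 at the threshold of 0.01, and 979 to 1485 and 1336 to 1709 with 1 array left out, and 2493 and 2919 with 1 probeset per gene. Signs turned only for genes near 0 and only with 1 array left out, where E2F1 ranged from −0.02 to 0.03, E2F4 from −0.03 to 0.01, STAG3 from −0.04 to 0.10, TUBA3C from −0.07 to 0.08 and LIN9 from −0.13 to 0.03. KRT8 and APAF1 also lost their calls with median centring (adjusted p = 0.052 and 0.060). The cause of these changes was not tested.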
